A study of Mus musculus with 10 samples.

Results

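Leukaemia cells with a floxed allele of Zfx were compared with leukaemia cells with the wild-type allele after both had received the drug that switches on Cre recombinase. The comparison used the 5 arrays of cells treated with 4-hydroxytamoxifen (4-OHT), of 10 arrays in the series, chosen by the sample titles: 3 arrays of floxed cells (called fl here) and 2 arrays of wild-type cells (called wt). Each array measured RNA of c-Kit-positive cells from 1 independent mouse acute myeloid leukaemia line driven by the MLL-AF9 fusion, so 5 leukaemias entered the comparison and no line stood in both groups. The fl lines 10949, 10950 and 10986 carried Zfx fl/y and the wt lines 10977 and 10980 carried Zfx wt/y. All 5 lines carried a tamoxifen-inducible Cre-ER transgene, driven by a promoter not given in the sources used here, and all were grown for 72 h with 10 nM 4-OHT before c-Kit-positive cells were sorted. The leukaemia cells came from moribund mice, whose ages were not stated. GEO's labels give the genotype of the fl 4-OHT samples as "cko", and the series title gives the question as the effect that loss of Zfx has on the transcripts of such leukaemia cells. The other 5 arrays held the same lines grown with ethanol vehicle. They did not enter the comparison, and their values are given beside it to show how the lines differed without 4-OHT.

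Zfx is an X-linked zinc finger transcription factor that binds at the promoters of many genes and is known for its part in the self-renewal of embryonic and haematopoietic stem cells. The MLL-AF9 fusion joins the amino-terminal part of a histone methyltransferase to a partner protein that recruits elongation factors, and it keeps genes such as Hoxa9 and Meis1 active in myeloid progenitors. Cells of such leukaemias that carry c-Kit, the receptor for stem cell factor, are often used as a population enriched for leukaemia-initiating cells. With 1 line per array, a difference between the groups holds both the difference made by the induced allele and any difference between the leukaemias themselves, and the p-values measure the spread between lines. The arrays read bulk RNA, so fewer cells of a type and less RNA per cell cannot be told apart.

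The 5 arrays had median signals of 144.73 to 156.25 and correlated with each other across genes at r of 0.9728 to 0.9928. The first principal component held 46.7% of their variance, with the fl arrays at 10.27 to 17.61 and the wt arrays at -10.33 and -31.18, line 10980 lying farthest out. The second held 30.4% and set fl line 10950, at -26.66, apart from the other 4 arrays. Markers of the labelled cell type were present: Mpo, Elane, Hoxa9 and Meis1, genes of myeloid leukaemia cells, together averaged a log2 level of 12.05 to 12.23 on the fl arrays and 12.44 to 12.68 on the wt arrays. The progenitor markers Kit and Cd34 averaged 10.00 to 10.77 on the fl arrays and 8.82 to 10.19 on the wt arrays.

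Zfx itself did not mark the groups. Its log2 level, the log2 of the deposited array signal, was 10.07, 9.98 and 10.02 in fl lines 10949, 10950 and 10986 and 9.90 and 10.04 in wt lines 10977 and 10980. The groups overlapped, with a difference of 0.05 (fl minus wt, SE 0.10, limma adjusted p = 0.924), which turned to -0.02 without wt line 10977. Under vehicle the fl lines had been at 10.09, 9.63 and 9.24 and the wt lines at 10.12 and 10.07, a difference of -0.45 with overlapping groups, and of -0.24 without fl line 10986. From vehicle to 4-OHT Zfx changed by -0.02, 0.35 and 0.79 in fl lines 10949, 10950 and 10986, and by -0.22 and -0.02 in the wt lines. Where the probes lie against the deleted exons was not stated, and probes outside the deleted part check neither the deletion nor the labels. The Zfx paralogues on the list, 3 of its 4 genes, lay below the level filter. Kit, the gene of the receptor used to sort the cells, was at 8.72, 9.20 and 8.74 in the fl lines and at 8.64 and 9.94 in the wt lines. Its difference of -0.40 (SE 0.37, limma adjusted p = 0.822) rested on line 10980 and was 0.25 without it.

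Among 15662 genes tested, 11 were higher in the fl cells (0.0702% of the genes tested) and 30 were lower (0.192%), together 41 genes (0.262%), at a limma adjusted p under 0.05. The higher genes differed by 1.92 to 8.55-fold and included the membrane protein Dlk1, the hyaluronan receptor Layn, the interferon-induced GTPase Gbp3 and the antigen-presenting molecule Mr1. The lower genes differed by 1.86 to 5.01-fold and included the membrane-bending protein Cibar1, the histone reader Zmynd11, the topoisomerase Top2b, the aminopeptidase-like Npepl1 and the heparan sulphate polymerase Ext2. In each of the 41 genes the 3 fl values lay on one side of both wt values. Non-overlap by itself was common: 12.6% of all genes tested lay above both wt arrays in every fl line and 14.2% lay below. The log2 difference of all genes had a median of 0.02 and an SD of 0.28, with a median SE of 0.13.

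The number of genes past the threshold moved with each array. It was 3 higher and 8 lower without fl line 10949, 13 and 8 without fl line 10950, 2 and 4 without fl line 10986, and 4 and 17 without wt line 10977. Without wt line 10980 no gene passed (limma, smallest adjusted p = 0.0726), while 302 genes were higher and 589 lower at an unadjusted p under 0.05, against 603 (3.85%) and 1189 (7.59%) with all 5 arrays. Dlk1, Layn and Lrrc41 passed in 16 of 17 alternative analyses each and Cibar1 in 15 of 16, in each case with the exception of the analysis without line 10980. Npepl1 passed in 15 of 17 and Trim12a in 14 of 16, both failing when either wt line was left out.

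**Figure D1:**
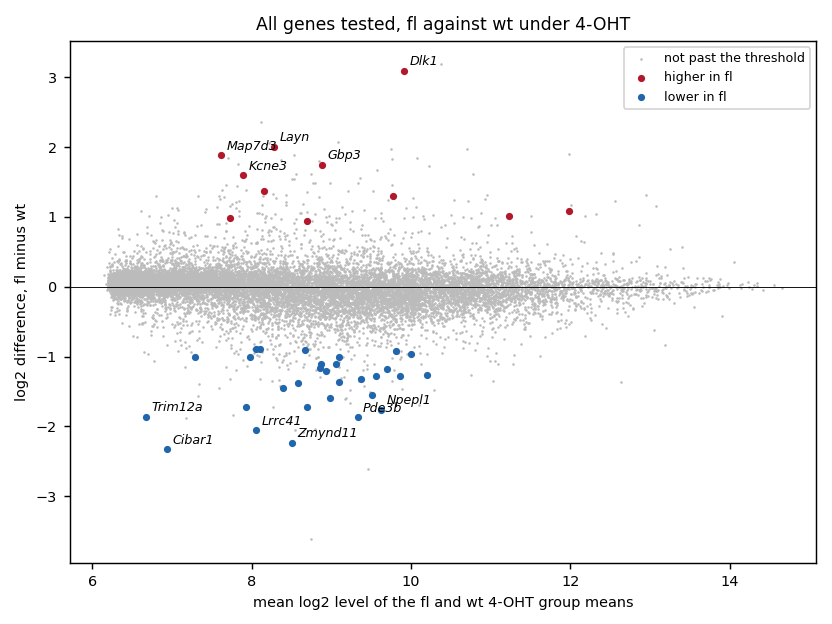
Log2 difference between the fl and wt 4-OHT group means (vertical axis) against the mean log2 level of the group means (horizontal axis) for 15662 genes, 1 point per gene. Red points are the 11 genes higher in fl and blue points the 30 genes lower at a limma adjusted p under 0.05, with the largest named; many grey points that did not pass lie as far from 0 as the coloured ones.

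Among surface and secreted proteins past the threshold, Dlk1 differed most. Dlk1 is an imprinted transmembrane protein related to Notch ligands and is known from fetal liver and preadipocytes. Its log2 level was 11.44, 11.33 and 11.61 in fl lines 10949, 10950 and 10986 and 8.51 and 8.22 in wt lines 10977 and 10980. The groups stood 8.55-fold apart, a log2 difference of 3.10 (SE 0.14, limma adjusted p = 0.00318). The lines differed in the same way under vehicle, by 2.24, and Dlk1 was higher with 4-OHT than with vehicle in all 3 fl lines. The other measured genes of the Dlk1-Meg3 imprinted region did not pass: Meg3, a long noncoding RNA expressed from the maternal copy, was at 8.87, 8.39 and 11.17 in the fl lines and at 7.64 and 7.55 in the wt lines. That is a difference of 1.88 (SE 0.76, limma adjusted p = 0.417) in which line 10986 stood far above the other fl lines. Rtl1 differed by 0.37 and lay above both wt arrays in every fl line, and Rian differed by 1.10 with overlapping groups, again highest in line 10986. The median over these 4 genes was 1.49, and 0.69 without line 10986, against 0.02 over all genes tested.

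Layn, a membrane receptor for hyaluronan, was at 9.42, 9.11 and 9.31 in the fl lines and at 7.41 and 7.14 in the wt lines. The difference was 2.01 (SE 0.14, limma adjusted p = 0.0113), against 0.89 under vehicle. Clec2i, a C-type lectin recognised by receptors of natural killer cells, had high levels in both groups, 12.59, 12.47 and 12.52 against 11.30 and 11.57, and differed by 1.09 (SE 0.12, limma adjusted p = 0.0332). Kcne3, an accessory subunit of potassium channels, was at 8.61, 8.63 and 8.85 against 7.21 and 6.98, a difference of 1.60 of which 1.23 was present under vehicle. Among the lower genes of the cell surface, P2rx1, an ATP-gated ion channel, was at 8.38, 8.44 and 8.44 in the fl lines and at 9.53 and 10.04 in the wt lines. Its difference was -1.37 (SE 0.16, limma adjusted p = 0.0385). Gpc1, a glypican that carries heparan sulphate, and Megf9, a membrane protein with EGF-like repeats, differed by -1.10 and -1.01. The secreted adipokine C1qtnf12 differed by -1.32. In each of these genes the 3 fl values lay closer to each other than to either wt value. The genes were chosen on these same arrays, so nothing is read from that closeness.

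Immune genes were found on both sides. Mr1 encodes the MHC-related molecule that presents vitamin B metabolites to T cells. It was at 8.94, 8.68 and 8.89 in the fl lines and at 7.55 and 7.39 in the wt lines, a difference of 1.37 (SE 0.12, limma adjusted p = 0.0235). Under vehicle the same lines differed by -0.21 with overlapping groups, and by -0.04 without the vehicle array of fl line 10986, which stands apart from the other arrays. The change of the difference was 1.58 (SE 0.26, limma adjusted p = 0.483, unadjusted p = 0.000556). Gbp3, an interferon-induced guanylate-binding protein, was at 9.93, 9.65 and 9.69 against 8.33 and 7.69, a difference of 1.75 (SE 0.20, limma adjusted p = 0.0385), and of 0.33 under vehicle, or 0.76 without the vehicle array of line 10986. Ptgs2, the inducible cyclooxygenase of prostaglandin synthesis, was at 8.26, 8.13 and 8.26 against 7.34 and 7.14, a difference of 0.98. Trim12a belongs to a family of antiviral ubiquitin ligases with near-identical copies, so probes may read more than 1 copy. It was at 5.96, 5.65 and 5.62 in the fl lines, below the level filter of 6.23, and at 7.59 and 7.61 in the wt lines. Its difference was -1.86 (SE 0.13, limma adjusted p = 0.0113), and the same lines differed by -2.19 under vehicle. Its neighbour Trim12c lay the other way, above both wt arrays in every fl line with a difference of 0.48 (SE 0.16, limma adjusted p = 0.312).

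**Figure D2:**
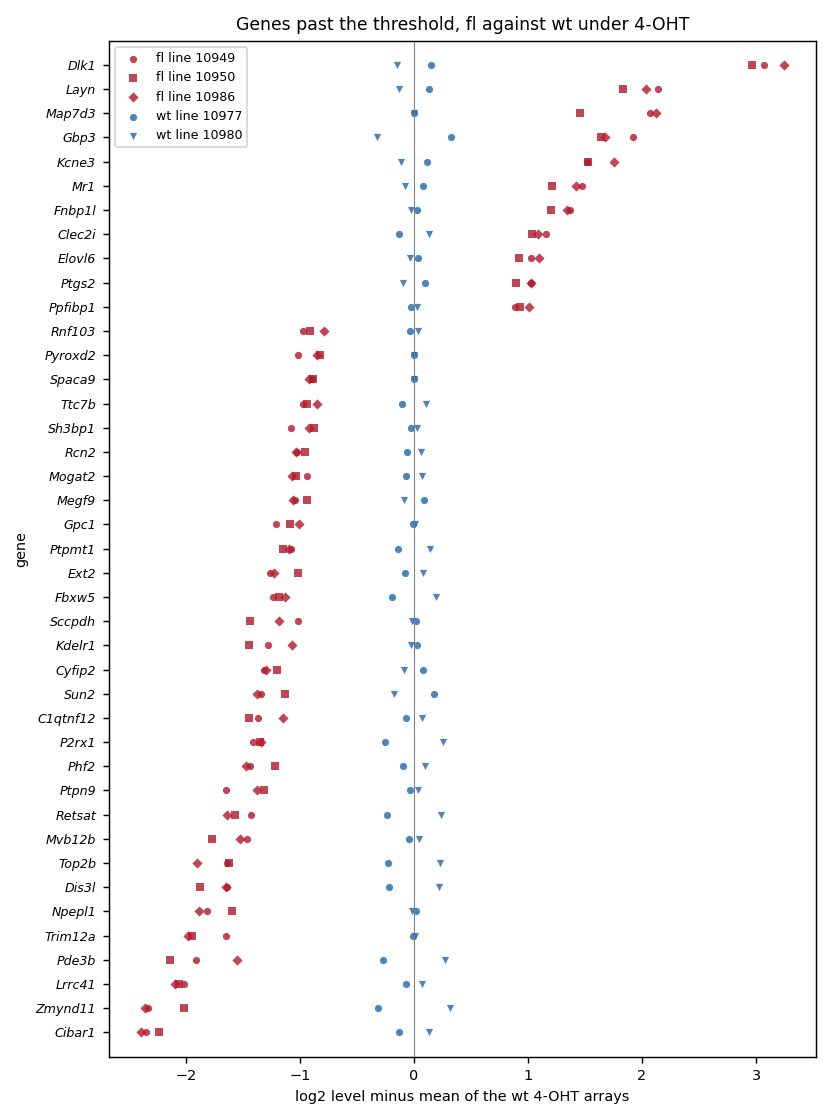
Log2 level of each of the 41 genes past the threshold on every 4-OHT array, minus the mean of the 2 wt arrays, with genes ordered by their difference. Red symbols are the fl lines and blue symbols the wt lines; in each gene the 3 fl symbols lie on one side of both wt symbols.

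Genes of chromatin, the nucleus and RNA decay were among the lower ones. Zmynd11, which reads methylated histone tails on transcribed genes, was at 7.29, 7.61 and 7.27 in the fl lines and at 9.31 and 9.94 in the wt lines. The difference was -2.24 (SE 0.21, limma adjusted p = 0.0235), against -0.86 under vehicle. Top2b, the DNA topoisomerase of non-dividing as well as dividing cells, was at 7.92, 7.93 and 7.66 against 9.33 and 9.78, a difference of -1.72 (SE 0.17, limma adjusted p = 0.0256). Phf2, a PHD finger protein of the histone demethylase family, was at 7.83, 8.05 and 7.79 against 9.17 and 9.36. It differed by -1.37, and by 0.05 with overlapping groups under vehicle, which was -0.12 without the vehicle array of line 10986. Dis3l, an exonuclease of the cytoplasmic RNA exosome, was at 7.14, 6.91 and 7.14 against 8.57 and 9.001, a difference of -1.72 (SE 0.16, limma adjusted p = 0.0235). Sun2, which links the inner nuclear membrane to the cytoskeleton, differed by -1.28. In all 5 of these genes every fl line was lower under 4-OHT than under vehicle.

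A reported binding motif of Zfx has the core AGGCCT, which is its own reverse complement, and it was searched in the RefSeq promoters of the called genes, windows of 300 bases around each start (assembly GRCm38.p6). The letters were found in 4 of 29 promoters of the lower genes (13.8%, from 24 genes with a promoter in the table) and in 0 of 14 promoters of the 11 higher genes, against 10.6% of 15369 promoters of genes tested. The lower genes with a match were Mvb12b, Dis3l and Zmynd11, whose matching promoters are shown with the motif in capitals, and the promoters of Npepl1 and Dlk1 are shown as those of strongly differing genes without it. All are written 5′ to 3′ on the strand of the gene. Mvb12b has the motif at 2 places, at chr2:33887897-33888196 on the minus strand. Dis3l lies at chr9:64340724-64341023 on the minus strand, and Zmynd11 at chr13:9764421-9764720, also on the minus strand, where a second promoter at chr13:9763761-9764060 holds the other match. The promoter of Npepl1 is at chr2:174110101-174110400 and that of Dlk1 at chr12:109452573-109452872, both on the plus strand.
Mvb12b: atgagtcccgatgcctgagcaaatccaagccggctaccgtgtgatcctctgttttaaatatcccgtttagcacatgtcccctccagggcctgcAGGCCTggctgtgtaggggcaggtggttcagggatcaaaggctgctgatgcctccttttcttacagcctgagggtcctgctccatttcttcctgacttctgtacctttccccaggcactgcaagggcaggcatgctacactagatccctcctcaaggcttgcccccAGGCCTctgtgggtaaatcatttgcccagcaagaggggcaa
Dis3l: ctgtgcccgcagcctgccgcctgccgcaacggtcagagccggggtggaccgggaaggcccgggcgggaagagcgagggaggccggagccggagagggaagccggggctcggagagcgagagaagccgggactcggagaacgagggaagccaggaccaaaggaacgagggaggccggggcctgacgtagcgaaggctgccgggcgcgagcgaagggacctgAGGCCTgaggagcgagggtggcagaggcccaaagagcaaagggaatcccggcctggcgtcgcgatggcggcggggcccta
Zmynd11: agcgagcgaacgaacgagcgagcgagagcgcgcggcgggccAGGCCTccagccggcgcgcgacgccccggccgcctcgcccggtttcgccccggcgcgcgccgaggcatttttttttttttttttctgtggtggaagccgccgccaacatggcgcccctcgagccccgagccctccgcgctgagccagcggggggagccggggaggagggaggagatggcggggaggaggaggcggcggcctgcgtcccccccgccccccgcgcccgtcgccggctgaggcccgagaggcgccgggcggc
Npepl1: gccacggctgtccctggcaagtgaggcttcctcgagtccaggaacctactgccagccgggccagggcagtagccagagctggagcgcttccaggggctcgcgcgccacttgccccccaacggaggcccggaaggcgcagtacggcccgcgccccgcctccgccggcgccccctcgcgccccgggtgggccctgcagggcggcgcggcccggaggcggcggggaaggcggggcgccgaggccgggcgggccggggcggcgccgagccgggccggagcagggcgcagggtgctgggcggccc
Dlk1: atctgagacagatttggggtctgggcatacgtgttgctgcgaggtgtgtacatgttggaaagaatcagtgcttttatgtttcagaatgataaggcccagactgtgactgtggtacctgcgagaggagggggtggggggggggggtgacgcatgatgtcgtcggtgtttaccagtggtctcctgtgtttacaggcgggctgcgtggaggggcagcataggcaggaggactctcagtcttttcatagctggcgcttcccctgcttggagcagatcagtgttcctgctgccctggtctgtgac
The share in the lower genes was near that of all promoters, and a match is a description of the letters, not a binding site. The promoters of the lower genes had a median GC content of 63.3% and those of the higher genes 55.7%, against 59.3% for all genes tested. The promoter shown for Npepl1 had 80.7%, and that of Phf2, another lower gene, had 87.0%.

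Membrane traffic, protein turnover and the cytoskeleton supplied further lower genes. Cibar1, a BAR domain protein that shapes membranes at the base of cilia, was at 5.75, 5.87 and 5.71 in the fl lines, below the level filter, and at 7.97 and 8.23 in the wt lines. Its 5.01-fold difference, -2.33 on the log2 scale (SE 0.12, limma adjusted p = 0.00318), compared with -0.74 under vehicle. Mvb12b, a subunit of the ESCRT machinery that sorts membrane proteins for degradation, was at 8.307, 7.9998 and 8.248 against 9.73 and 9.82. Its levels under vehicle, 9.17 to 9.60 in the fl lines and 9.71 and 9.73 in the wt lines, were close together, with a difference of -0.29, and of -0.16 without the vehicle array of line 10986. Kdelr1, the receptor that returns proteins to the endoplasmic reticulum, differed by -1.26, and the endoplasmic reticulum proteins Rcn2 and Rnf103 by -1.003 and -0.89. Lrrc41, a leucine-rich repeat protein of cullin ubiquitin ligases, was at 7.07, 7.03 and 6.99 in the fl lines and at 9.02 and 9.15 in the wt lines. Its difference of -2.05 (SE 0.10, limma adjusted p = 0.00318) came with a small spread, the fl lines having an SD of 0.04 and the wt lines of 0.10. Fbxw5, another substrate receptor of ubiquitin ligases, differed by -1.18.

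Actin regulators appeared in both directions. Cyfip2, a subunit of the WAVE complex, was at 9.18, 9.30 and 9.20 in the fl lines and at 10.58 and 10.41 in the wt lines, a difference of -1.27 (SE 0.11, limma adjusted p = 0.0197). Sh3bp1, which switches off Rac, differed by -0.96. Fnbp1l, an F-BAR protein that starts actin assembly at curved membranes, was higher in the fl lines at 10.49, 10.32 and 10.47 against 9.15 and 9.09. Its difference of 1.30 (SE 0.11, limma adjusted p = 0.0167) was as large under vehicle, 1.28. The microtubule-associated protein Map7d3 was at 8.75, 8.14 and 8.80 against 6.68 on both wt arrays, a difference of 1.88 (SE 0.21, limma adjusted p = 0.0343), and the liprin Ppfibp1 differed by 0.94. Both wt values of Map7d3 lie near the level filter, where signals carry less information.

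Metabolic and signalling enzymes completed the set. Npepl1, a putative aminopeptidase, was at 8.69, 8.91 and 8.63 in the fl lines and at 10.52 and 10.49 in the wt lines, a difference of -1.76 (SE 0.12, limma adjusted p = 0.0113). Under vehicle all 3 fl lines were slightly above both wt lines, by 0.14 on average, so the order of the groups was turned. Pde3b, which hydrolyses cyclic AMP, was at 8.36, 8.13 and 8.72 against 9.99 and 10.53, a difference of -1.87, and of -1.80 under vehicle. Ptpmt1, a mitochondrial phosphatase needed for the synthesis of cardiolipin, was at 8.54, 8.47 and 8.52 against 9.48 and 9.76. Its difference was -1.11 (SE 0.12, limma adjusted p = 0.0325), against -0.30 under vehicle, where the groups overlapped, and -0.04 there without line 10986. Ext2, which elongates heparan sulphate chains with Ext1, was at 8.18, 8.43 and 8.22 against 9.37 and 9.52, a difference of -1.17 (SE 0.12, limma adjusted p = 0.0312). Under vehicle Ext2 differed by 0.03. Ext1 lay the other way, with a difference of 0.65 (SE 0.16, limma adjusted p = 0.185).

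Of the lipid and retinoid enzymes, Elovl6, which lengthens fatty acids, was higher at 11.75, 11.64 and 11.82 against 10.76 and 10.68, a difference of 1.01 (SE 0.11, limma adjusted p = 0.0312). Retsat, which saturates retinol, was lower at 8.85, 8.71 and 8.64 against 10.04 and 10.52, a difference of -1.55 (SE 0.16, limma adjusted p = 0.0312). Mogat2, an acyltransferase that makes diacylglycerol, differed by -1.01 at low levels, 6.73 to 6.86 against 7.73 and 7.87, and by -1.24 under vehicle. The tyrosine phosphatase Ptpn9 was at 7.47, 7.81 and 7.75 against 9.08 and 9.15, a difference of -1.44. Ttc7b, a scaffold of a lipid kinase at the plasma membrane, the oxidoreductase-like Sccpdh and Pyroxd2, and Spaca9, a protein of sperm and ciliary microtubules, differed by -0.92, -1.21, -0.90 and -0.90. Sccpdh had 1 fl line, 10986, whose level of 8.16 under vehicle was already below that of the other fl lines.

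The called genes differed in how far the lines stood apart without 4-OHT. Under vehicle the fl and wt lines gave no gene past the threshold (limma, smallest adjusted p = 0.445), with 926 genes at an unadjusted p under 0.05 (5.91%). Of the 41 called genes, 37 had a vehicle difference in the same direction, the exceptions being Ext2, Mr1, Npepl1 and Phf2, the last of which takes the same direction without the vehicle array of line 10986. In 27 of the 41 the vehicle groups did not overlap in that direction, against 18.6% of all genes above and 12.1% below. That count was 32 when the vehicle array of fl line 10986 was left out, an array that correlated with the others at a mean r of 0.9615, where each of the 9 remaining arrays reached 0.979 to 0.9846. With 2 lines against 2 non-overlap is easier for every gene, and 22% of all genes then lay above and 15.6% below. The median vehicle difference was 0.58 in the 11 higher genes and -0.45 in the 30 lower genes, against medians of 1.37 and -1.28 under 4-OHT, and 0.77 and -0.34 without the vehicle array of line 10986. Because the same lines stand in both comparisons, the vehicle values describe the lines and are no independent support.

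Sorted by the size of the vehicle difference, with limits chosen after the values were seen, the genes fell into 3 groups. In 6 genes the vehicle difference was at least 75% of that under 4-OHT: Pde3b, Trim12a, Megf9, Mogat2, Fnbp1l and Kcne3. In 12 genes it was under 25%, or of the other sign: Npepl1, Mvb12b, Ptpn9, Phf2, Kdelr1, Fbxw5, Ext2, Sh3bp1, Pyroxd2, Mr1, Gbp3 and Map7d3. The other 23 lay between, Dlk1, Cibar1, Zmynd11 and Lrrc41 among them. Without the vehicle array of line 10986, an alternative added after the data were seen, the groups held 6, 19 and 16 genes. The same 6 genes stayed in the first. Gbp3 (0.76), Map7d3 (0.77) and Sh3bp1 (-0.34) left the second for the middle, and Cibar1, Dis3l, Lrrc41, Ptgs2, Ptpmt1, Retsat, Rnf103, Sccpdh, Spaca9 and Top2b entered it, so for these 13 genes the group rests on that 1 array. In 34 of the 41 genes each fl line moved further in the direction of the difference when given 4-OHT, the exceptions being Clec2i, Fnbp1l, Kcne3, Mogat2, Pde3b, Sccpdh and Trim12a. Over all genes tested, 14.6% were higher and 14.5% lower with 4-OHT in each fl line, but the called genes were chosen on the same fl 4-OHT arrays, so nothing is read from the 34. In the wt lines the mean change of the called genes with 4-OHT lay between -0.32 for Map7d3 and 0.33 for Gpc1.

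The change of the fl against wt difference with 4-OHT was also tested, in a fit of all 10 arrays with the line as a block. No gene passed (limma, smallest adjusted p = 0.198), with 912 genes at an unadjusted p under 0.05 (5.82%). Among the 41 called genes 30 had an unadjusted p under 0.05 for this change; the 4-OHT arrays serve both fits, so nothing further is read from that count. The change was -1.90 for Npepl1 (SE 0.17, unadjusted p = 1.69e-05, limma adjusted p = 0.198), -1.58 for Cibar1 (SE 0.21, adjusted p = 0.348) and -1.20 for Ext2 (SE 0.15, adjusted p = 0.283). For Dlk1 it was 0.86 (SE 0.25, limma adjusted p = 0.719), and for Trim12a and Pde3b it was 0.34 (SE 0.21) and -0.06 (SE 0.31).

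**Figure D3:**
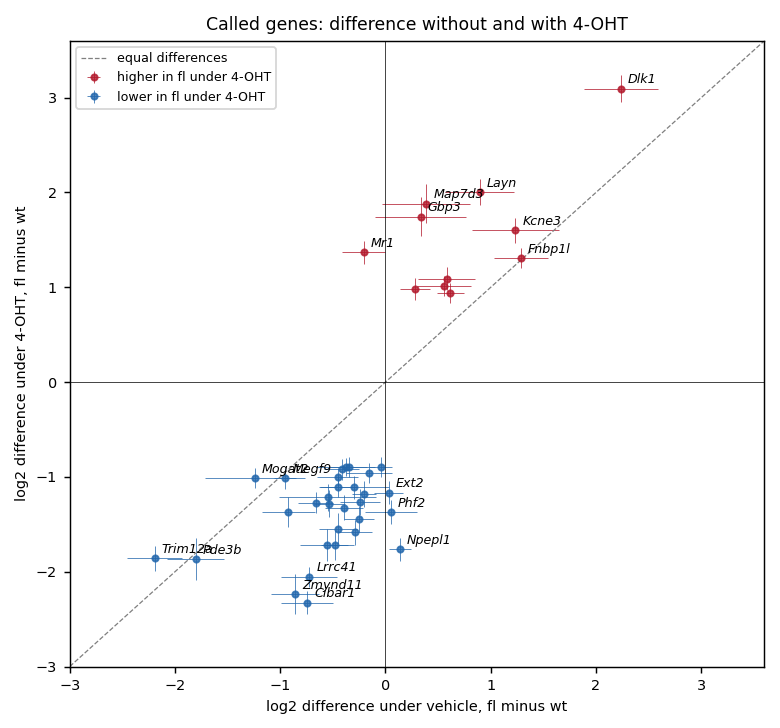
Log2 difference between fl and wt under vehicle (horizontal axis) and under 4-OHT (vertical axis) for the 41 called genes, with bars of 1 SE from limma and a dashed line of equal differences. Pde3b, Fnbp1l, Trim12a and Mogat2 lie near the dashed line, while Mr1, Npepl1, Phf2 and Ext2 lie near 0 or across it on the vehicle axis.

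**Figure D4:**
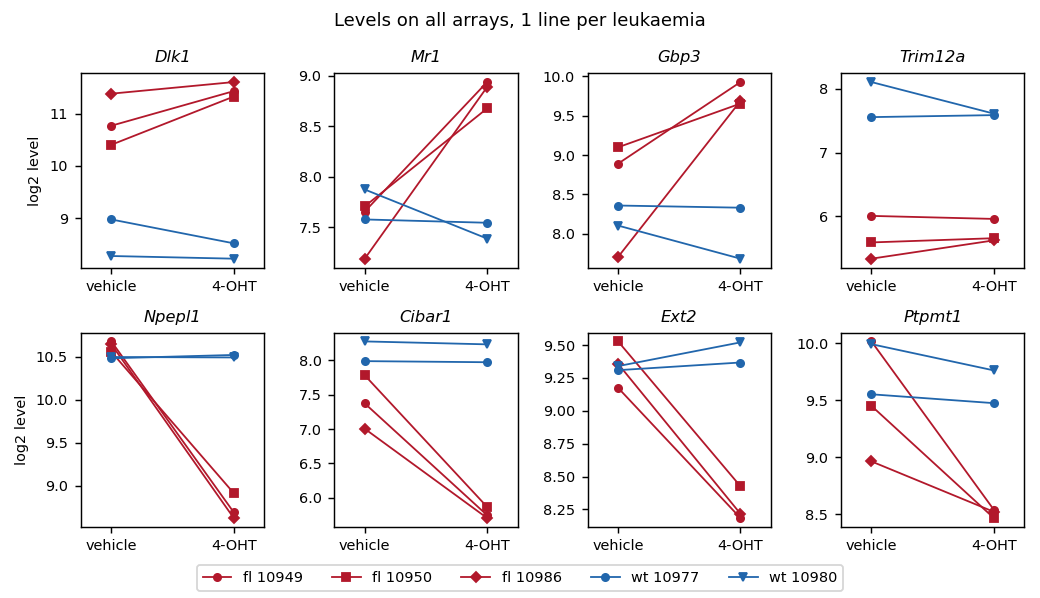
Log2 levels of 8 called genes on all 10 arrays, with 1 line per leukaemia joining its vehicle and 4-OHT arrays, fl in red and wt in blue; each panel has its own vertical scale. Trim12a separates the groups under both treatments, Dlk1 does so with a wider gap under 4-OHT, and Mr1 and Ext2 overlap under vehicle and separate under 4-OHT; Npepl1 has fl slightly above wt under vehicle and well below under 4-OHT.

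Genes that pass in the fl lines when 4-OHT is set against vehicle share the fl 4-OHT arrays with the comparison here, so their values are given side by side. Of 16 genes that fell in that comparison (0.102% of genes tested), 12 were also lower past the threshold here, as were 0.192% of genes tested. These 12 were Cibar1, Dis3l, Ext2, Fbxw5, Lrrc41, Mvb12b, Npepl1, Ptpn9, Pyroxd2, Retsat, Top2b and Zmynd11. Since low values on the shared fl 4-OHT arrays favour both calls, nothing is read from the 12. Of the other 4, Ankrd52, which regulates a protein phosphatase, was at 8.41, 8.79 and 9.01 in the fl lines and at 10.10 and 10.37 in the wt lines and missed the threshold with a difference of -1.50 (SE 0.19, limma adjusted p = 0.0523). Cebpd, a transcription factor of myeloid cells, and H2ax, the histone variant marked at DNA breaks, differed by -0.70 and -0.79 without passing. The histone gene H3c4, one of several near-identical copies that probes may not tell apart, overlapped between the groups with a difference of 0.15. It turned to -0.09 without fl line 10950 and to -0.21 without wt line 10977. In this gene the fl lines had been higher than the wt lines by 1.80 under vehicle. H2ax had also been higher under vehicle in every fl line, by 0.85 on average and by 0.71 without line 10986. Ankrd52 and Cebpd had vehicle differences of 0.16 and 0.01 with overlapping groups.

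None of the 8 genes that rose in the fl lines with 4-OHT (0.0511% of genes tested) passed here, although all 8 lay above both wt arrays in every fl line, against 12.6% of genes tested; since they were chosen on the same fl arrays, nothing is read from that share. Mmp8, the neutrophil collagenase, was at 10.97, 9.89 and 11.37 in the fl lines and at 9.57 and 7.97 in the wt lines. Its difference of 1.98 had an SE of 0.57 (limma adjusted p = 0.242), and the 2 wt lines were as far apart from each other as the fl lines were. Irf8, which directs the development of monocytes and dendritic cells, was at 10.10, 9.91 and 10.42 against 8.96 and 8.20, a difference of 1.56 (SE 0.25, limma adjusted p = 0.0943). Rab19, a small GTPase, came closest with 8.62, 7.98 and 8.35 against 7.06 and 6.81, a difference of 1.39 (SE 0.20, limma adjusted p = 0.0732). Hpse, the heparanase that cleaves heparan sulphate, differed by 1.73, Itga1, an integrin subunit that binds collagen, by 1.79 and Vcan, a matrix proteoglycan of monocytes, by 1.62. The endocytic adaptor Dab2 and the lysosomal protease Ctss differed by 1.37 and 1.19. A dimmer probe set of Dab2 differed by 0.05, so its probe sets disagreed. Under vehicle the median difference of the 8 genes was 0.002, and -0.18 without line 10986, and under 4-OHT it was 1.59. The vehicle median joins members of both signs. Irf8, Itga1, Rab19 and Vcan differed by 0.70, 0.37, 0.23 and 0.16 under vehicle. Dab2, Mmp8, Ctss and Hpse differed by -0.53, -0.48, -0.19 and -0.16. Irf8 and Rab19 already lay above both wt lines in every fl line under vehicle, as did 18.6% of genes tested. Because the genes were chosen for their rise in the same fl lines, nothing is read from these medians.

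Gene lists were described by how many members passed, how many lay wholly above or below the wt arrays, and the median difference. Of 37 lists, 5 held a gene past the threshold, and no list held more than 1. These were Gbp3 among 21 measured interferon-stimulated genes, Trim12a among 10 Trim genes, Ptpmt1 among 13 cardiolipin genes, Ext2 among 21 heparan sulphate genes and Dlk1 among 4 genes of its imprinted region. Over all genes tested 0.262% passed. The lists were chosen with earlier results of these data known, so nothing is read from the 5. The shares of members lying wholly to one side are to be read against 12.6% above and 14.2% below over all genes tested.

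The best-known genes of the MLL fusion programme overlapped between the groups. Hoxa9 was at 11.40, 11.52 and 11.38 in the fl lines and at 11.82 and 10.88 in the wt lines, a difference of 0.08 (SE 0.26, limma adjusted p = 0.95), and -0.39 without line 10980. Meis1 differed by 0.13 (SE 0.20), and by -0.10 without line 10980. Of 23 measured genes of the programme, 4 lay above and 2 below both wt arrays. Pbx3, a cofactor of Hox proteins, was at 11.79, 12.16 and 12.09 against 10.43 and 11.57, a difference of 1.01 (SE 0.32, limma adjusted p = 0.289), and the receptor gene Flt3 differed by 0.96. The Flt3 difference ranged from 0.27 to 1.34 over the alternative analyses. The median of 0.11 became 0.04 without line 10950, 0.06 without line 10986, 0.35 without line 10977 and -0.13 without line 10980, so its sign depended on a single wt line.

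Among stem and progenitor surface markers, 5 of 11 lay above and 2 below both wt arrays. Cd34 was at 11.48, 12.33 and 11.26 in the fl lines and at 8.99 and 10.44 in the wt lines, a difference of 1.98 (SE 0.47, limma adjusted p = 0.177), against 0.98 under vehicle, or 1.72 without the vehicle array of line 10986. Under 4-OHT it was 1.25 without wt line 10977. Thy1, a surface antigen of some stem cells and of T cells, was at 9.21, 10.06 and 8.56 against 7.73 and 7.75, a difference of 1.54 (SE 0.39). Prom1, the membrane protein CD133, lay the other way at 7.74, 7.12 and 7.35 against 8.76 and 9.51, a difference of -1.73 (SE 0.27, limma adjusted p = 0.0862), and of -1.58 under vehicle. These 3 genes did not pass the threshold, and in each the groups did not overlap.

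Primary granule genes, which are expressed by promyelocytes, lay low in the fl lines without passing. Of 10 measured members, 5 lay below both wt arrays and none lay above. Mpo, the myeloperoxidase gene, was at 12.32, 12.24 and 11.29 in the fl lines and at 13.02 and 13.62 in the wt lines, a difference of -1.37 (SE 0.34, limma adjusted p = 0.185). The others were Ms4a3 at -0.83, Cebpe, a transcription factor of granule genes, at -0.81 (SE 0.12, limma adjusted p = 0.0828), the elastase gene Elane at -0.41 and the proteinase gene Prtn3 at -0.29. Prss57, after Mpo the member that differed most, was not among these 5 and its groups overlapped. Its difference ranged from -1.64 to -0.15 over the alternative analyses. The median of the list was -0.35, against 0.02 over all genes, and -0.23 without wt line 10977; it was -0.38 under vehicle. Among myeloid transcription factors 5 of 18 lay below and 2 above, with a median of 0.0. The largest difference on this list lay above, Irf8 at 1.56. Gfi1, a repressor needed by granulocyte precursors, was at 9.76, 9.66 and 9.49 against 10.35 and 10.82, a difference of -0.95 (SE 0.17, limma adjusted p = 0.1), and Spi1, which encodes PU.1, differed by -0.52. Late granule genes were mixed, with 4 of 17 below and 1 above. Their median of -0.21 became -0.10 without line 10950, -0.04 without line 10986, 0.33 without line 10977 and -0.57 without line 10980.

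Monocyte and macrophage genes had 6 of 26 members above both wt arrays and none below, with a median of 0.14 that was 0.39 without line 10977, 0.31 without line 10950 and -0.03 without line 10980. The highest were Vcan, Irf8 and Ctss, while Csf1r, Cd14 and Adgre1, which define the lineage, were among those whose groups overlapped. The 9 markers of this lineage averaged 9.45 to 10.22 on the fl arrays and 9.08 to 9.68 on the wt arrays. Toll-like receptors and myeloid C-type lectins had 5 of 15 above and 1 below. Tlr1, a receptor for bacterial lipopeptides, was at 9.66, 9.49 and 10.03 against 8.61 and 7.87, a difference of 1.49 (SE 0.25, limma adjusted p = 0.0991). Tlr13 was at 9.48, 8.51 and 10.62 against 8.91 and 7.20, a difference of 1.48 with overlapping groups. The median of this list was 0.53 under 4-OHT and -0.32 under vehicle; under 4-OHT it was 0.19 without line 10980 and 0.35 without line 10949.

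Chemokine genes had 7 of 16 members above both wt arrays and none below. Ccl3, a chemokine of activated myeloid cells, was at 13.67, 13.40 and 13.74 in the fl lines and at 12.86 and 11.72 in the wt lines, a difference of 1.32 (SE 0.32, limma adjusted p = 0.177), where vehicle gave -0.50, and -0.29 without line 10986; under 4-OHT it was 0.75 without wt line 10980. Cxcl2 differed by 0.9996 (SE 0.17, limma adjusted p = 0.0991), and by 0.87 under vehicle. The receptor gene Cxcr2 differed by 1.46 with overlapping groups. Immediate early genes had 9 of 23 above and none below, with a median of 0.21, which was 0.11 without line 10950. Under vehicle it was 0.41, and 0.22 without line 10986. Zfp36, which destabilises cytokine messages, was at 9.53, 9.68 and 10.20 against 9.06 and 8.36, a difference of 1.09 (SE 0.27), and Fosl1, a subunit of AP-1, was at 8.14, 8.25 and 9.57 against 7.97 and 7.37, a difference of 0.98 that was 0.53 without fl line 10986. In none of these lists did a gene pass the threshold.

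Interferon-stimulated genes had 9 of 21 members above and 1 below. Apart from Gbp3 and Ifi203, at 1.10 (SE 0.31, limma adjusted p = 0.228), the members above both wt arrays differed by at most 0.34 (Irf7), and the median was 0.18, and 0.12 without line 10949 or line 10950. The lowest difference on this list was -0.95. Among the Trim genes, Trim30a, which lies in the same cluster as Trim12a, differed by 1.03 (SE 0.30, limma adjusted p = 0.242), and by -0.24 under vehicle, which was 0.17 without line 10986. Of 22 proteasome genes 5 lay above and 3 below, and the interferon-inducible subunits Psmb8 and Psmb9 differed by 0.69 and 0.51. Psmb8 was at 10.12, 10.05 and 9.93 against 9.43 and 9.25 (SE 0.12, limma adjusted p = 0.0991).

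Targets of ATF4, the transcription factor of the amino acid and stress response, lay low in the fl lines. Of 20 measured members 13 lay below both wt arrays (65.0%, against 14.2% of all genes tested) and none lay above, and none passed the threshold. Chac1, which degrades glutathione, was at 9.16, 8.44 and 7.90 in the fl lines and at 9.79 and 10.17 in the wt lines, a difference of -1.48 (SE 0.35, limma adjusted p = 0.169). Sesn2, a leucine sensor, differed by -0.82 (SE 0.15, limma adjusted p = 0.101), and the asparagine synthetase gene Asns by -0.62. The amino acid transporter gene Slc7a5 differed by -0.52, Trib3 and Ddit3 each by -0.45 and Atf4 itself by -0.36. In several of these genes the wt line 10980 was the highest of the 5 arrays: Chac1 at 10.17, Trib3 at 8.42 and Atf4 at 10.65. The median of the list was -0.33, -0.55 without line 10977 and -0.17 without line 10980, and it was -0.06 under vehicle.

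None of the cell cycle genes passed the threshold. Of 21 mitosis genes 6 lay below both wt arrays and none above, with a median of -0.20, -0.10 without fl line 10950 and -0.09 without wt line 10980. The kinesin gene Kif23 differed by -0.44 (SE 0.18) and the cyclin gene Ccnb2 by -0.38 (SE 0.12). Of 25 replication genes 4 lay below and 1 above, E2f1 being the most distant at -0.51 (SE 0.10, limma adjusted p = 0.113). Of 14 measured D cyclins, their kinases and Cdk inhibitors 2 lay above both wt arrays and 1 below. The Cdk inhibitor gene Cdkn1b, which encodes p27, was at 9.42, 9.37 and 9.77 against 9.10 and 9.01, a difference of 0.47 (SE 0.15). The largest difference of that list lay the other way, Cdkn2c at -0.775, and ranged from -1.22 to -0.32 over the alternative analyses. Among 20 MYC and ribosome biogenesis genes none lay wholly to either side, and Myc, at 11.50, 11.90 and 11.38 against 11.83 and 12.35, differed by -0.50 with overlapping groups. Of 18 measured p53 target genes 2 lay below and none above, Sesn2 and Gadd45a, and of 16 Bcl2 family genes 1 lay below, Bcl2l1 at -0.28. The largest difference of the Bcl2 family lay the other way, Bcl2l11 at 0.398 with overlapping groups. It ranged from 0.18 to 0.76 over the alternative analyses.

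Mitochondrial enzymes went both ways, with 5 of 25 genes of the TCA cycle list above and 5 below. Idh2, the mitochondrial isocitrate dehydrogenase, was at 10.05, 10.39 and 9.93 in the fl lines and at 10.97 and 11.82 in the wt lines. Its difference of -1.27 (SE 0.26, limma adjusted p = 0.129) did not pass, and under vehicle it was -0.10. Sdhd, a membrane subunit of succinate dehydrogenase, lay the other way at 11.93, 11.77 and 11.996 against 11.08 and 11.14, a difference of 0.79 (SE 0.11, limma adjusted p = 0.0732). Of the 13 cardiolipin genes, Ptpmt1 passed and 1 other, the phospholipase gene Pnpla8, lay below both wt arrays, at 6.84, 6.72 and 7.05 against 7.44 and 9.19. Its difference of -1.45 (SE 0.46) came with a high value in line 10980. The heparan sulphate list held Ext2 on the lower side and Hpse on the higher side, with 5 of 21 below and 7 above.

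Glutathione S-transferases, which attach glutathione to reactive compounds, had 8 of 15 members above both wt arrays (53.3%, against 12.6%) and 1 below. Gstt1 was at 9.04, 8.49 and 10.20 in the fl lines and at 7.47 and 6.90 in the wt lines, a difference of 2.06 (SE 0.47, limma adjusted p = 0.161), and of 0.19 under vehicle. Gstt2 was at 8.48, 8.53 and 8.46 against 7.70 and 7.82, a difference of 0.73 (SE 0.10, limma adjusted p = 0.069). Mgst2 lay below at -0.93. None of the 15 passed, and members of this family are similar enough in sequence that probes may read more than 1 of them. Hypoxia and glycolysis genes had 4 of 20 above and 3 below. Vegfa, the vascular growth factor gene, was at 9.40, 9.23 and 8.85 against 10.34 and 10.92, a difference of -1.47 (SE 0.23, limma adjusted p = 0.0857). Aldoc lay the other way with a difference of 1.006, which did not pass and ranged from 0.69 to 1.49 over the alternative analyses.

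Genes of other blood lineages were read to see whether the sorted cells differed in makeup. Of the defining erythroid and megakaryocyte markers, the 4 above the level filter averaged 6.86 to 6.98 on the fl arrays and 6.73 to 6.88 on the wt arrays. Of the defining lymphoid markers, the 3 above the filter averaged 6.60 to 6.74 against 6.55 to 6.67. The mast cell and basophil markers, all 5 above the filter, averaged 7.37 to 8.31 against 7.57 to 7.93, and the late granule markers 8.93 to 9.51 against 8.50 to 10.07. Single markers lay wholly to one side. Above both wt arrays lay 2 of the 9 monocyte and macrophage markers and 1 of 8 late granule markers. So did 1 of 4 erythroid and megakaryocyte markers and 1 of 5 mast cell markers, and 1 mast cell marker lay below. Of the labelled cell type, 2 of 4 myeloid leukaemia markers lay below and 1 of 2 progenitor markers lay above. Over all genes tested 12.6% lay above and 14.2% below, and nothing is read from counts this small. Car2, a carbonic anhydrase of red cell precursors and other cells, was at 6.05, 7.64 and 7.14 in the fl lines and at 9.88 and 11.24 in the wt lines, a difference of -3.61 (SE 0.55, limma adjusted p = 0.0828) that was -3.90 under vehicle. Several differences named above that did not pass moved over 1.5 times when 1 line was left out: without wt line 10980 Mmp8 was 1.17, Itga1 1.16, Idh2 -0.85, Tlr13 0.63, Trim30a 0.68 and Pnpla8 -0.58, and without wt line 10977 Pbx3 was 0.44. Without fl line 10986 Meg3 was 1.04, Rian 0.35 and Cxcr2 0.93, and without fl line 10950 Mgst2 was -0.52. Over all alternative analyses Spi1 ranged from -0.68 to -0.24 and Trib3 from -0.72 to -0.19. The part of cell makeup in the differences between the groups was not tested.

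**Figure D5:**
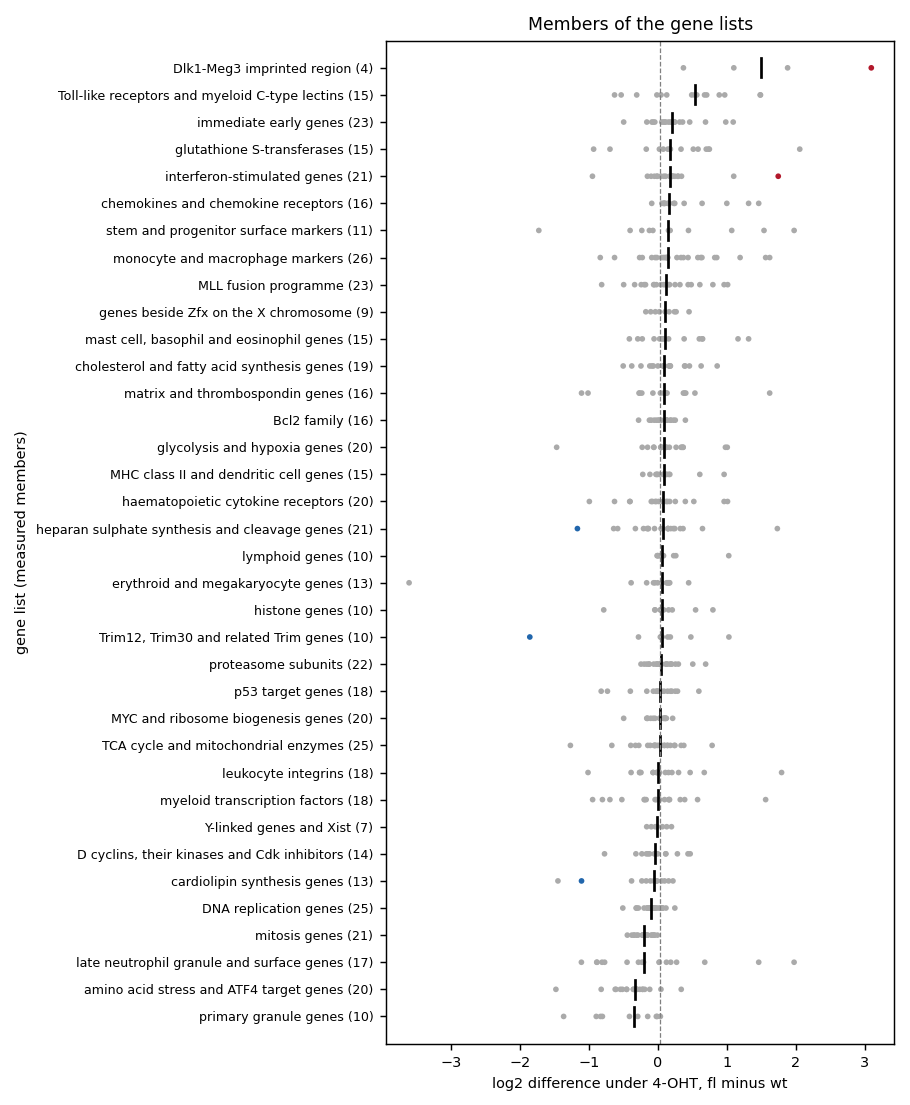
Log2 difference between fl and wt under 4-OHT (horizontal axis) for each measured member of the gene lists, with the number of measured members in brackets and a black bar at the median; the dashed line marks the median of all genes tested. Coloured points are the 5 members past the threshold, red higher and blue lower in fl; lists are ordered by median, from the Dlk1-Meg3 region at 1.49 to primary granule genes at -0.35.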

How the data were processed

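The authors deposited an intensity for each probe set on each array, computed with RMA per the submitters' processing notes (version not given in the sources used here). RMA corrects the background, brings all arrays to one distribution and summarises the probes of a set. Per the labels' protocols, total RNA was extracted with Trizol and labelled with the Ambion WT kit. The range of the deposited intensity values shows a linear scale, so they were converted to log2 here. Arrays have no read depth, and the number of arrays limits the precision.

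Of 35556 probe sets, 21789 have 1 gene symbol in the platform annotation, 1621 have several and 12146 are not listed there. Each gene was read from its brightest probe set with 1 symbol (19938 genes), with symbols updated through Entrez identifiers to the RefSeq table of GRCm38.p6. Genes with a mean log2 level over all arrays of at least 6.23, the 25th percentile of probe sets, were tested (15662 genes). The 3 fl 4-OHT and 2 wt 4-OHT arrays, grouped by the sample titles, were compared with limma 3.58.1 in R 4.3.3 (lmFit and eBayes, two-sided, Benjamini-Hochberg adjustment over all genes tested, threshold 0.05). Residual degrees of freedom were 3, and 6.51 with the prior. The fit was tested on simulated data. The vehicle arrays had a fit of their own, and the change of the difference came from all 10 arrays with the line as a block, since each line was cultured both ways; deviations of a line's 2 arrays from their group means correlated at 0.78 (10949), 0.22 (10950), -0.06 (10986) and 0.43 (10977, 10980).

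The members and the gene lists were chosen with earlier results of these data known, and lists were described without a set test. Named genes were the 15 largest differences past the threshold in each direction, Zfx, Kit, Idh2 and Ptpmt1, from each list as many as 4 members past the threshold, otherwise the 2 measured members that differed most, and the genes past the threshold in the fl lines with 4-OHT against vehicle. The lower genes beyond the 15 largest, and Cebpe, Ms4a3, Elane, Prtn3, Spi1, Asns, Slc7a5, Atf4, Ddit3, Trib3, Gstt2, Hoxa9, Meis1, Thy1, Cxcl2, Rian, Rtl1, Ext1, Trim12c, Irf7, Cth, Mgl2 and Cd300ld, were named after their values were seen. Alternatives changed the samples in the fit, the level filter, the probe sets used, the scaling, the variance prior and the array weights (statmod 1.5.0 for the random block), and left out each array in turn; a lone wt array was then assumed to vary like the fl arrays.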

Additional observations from a re-analysis of the deposited data

How the results depend on the processing

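With 11 genes higher and 30 lower as the counts reported, all 10 arrays with the line as a random replicate block (correlation 0.165) gave 29 and 72, and without a replicate block 18 and 67; 31 of the 41 genes passed in each. The genes lost in both were Clec2i, Elovl6, Gbp3, Kcne3, Map7d3, Mogat2, Ptpmt1, Sccpdh, Sh3bp1 and Spaca9. No paired analysis was possible because the fl and wt groups share no line. Counts were 7 and 13 with no level filter, 4 and 4 with all probe sets tested, 4 and 7 with arrays centred on their median, 20 and 51 with a trended prior, and 475 and 648 with array weights, whose estimation stopped before it converged. The filter at the 50th percentile, the filter on the 4-OHT arrays, the mean of a gene's probe sets, quantile normalization and the robust prior kept both counts within 1.5 times, but under quantile normalization 31 of the 41 genes passed, without Ext2, Fbxw5, Megf9, P2rx1, Pde3b, Pyroxd2, Rnf103, Sh3bp1, Sun2 and Ttc7b. Leaving out 1 array gave 0 to 13 higher and 0 to 17 lower genes. The cause of these moves was not tested. All 41 genes kept their direction in every analysis that tested them; in the analyses that leave out an array their non-overlap fixes it, so it is no sign of stability. Among genes not past the threshold, signs turned with array weights for Cpa3 (-0.26, from 1.16) and Spin4 (-0.18, from 0.26). Leaving out 1 array turned the sign of H3c4 (range -0.21 to 0.52), Hoxa9 (-0.39 to 0.55), Kdm5c (-0.33 to 0.0059), Kit (-1.05 to 0.25), Meis1 (-0.10 to 0.35), Spin4 (-0.13 to 0.51), Thbs1 (-3.05 to 0.83) and Zfx (-0.019 to 0.12). Single-gene results otherwise became weaker in 284 cases and stronger in 81, and 32 list medians moved while 375 did not.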

Other observations

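Some of the largest differences did not pass the threshold, and several of them were present under vehicle. Cth, which makes cysteine from cystathionine, was at 9.10, 7.38 and 7.96 in fl lines 10949, 10950 and 10986 and at 9.95 and 11.58 in wt lines 10977 and 10980, a difference of -2.61 (SE 0.61, limma adjusted p = 0.169) that was -1.93 under vehicle. Mgl2, a galactose-binding lectin of macrophages and dendritic cells, was at 7.80, 8.31 and 7.23 against 9.96 and 9.68, a difference of -2.04 (SE 0.30, limma adjusted p = 0.0758) that was -2.01 under vehicle. Cd300ld, a receptor of myeloid cells, was at 9.01, 8.85 and 10.04 against 7.40 and 6.48, a difference of 2.36 (SE 0.41, limma adjusted p = 0.1), and of 0.92 under vehicle. In each of these 3 genes the groups did not overlap.

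Thbs1, the gene of the matrix protein thrombospondin, differed more between the wt lines than between the groups. Its log2 level was 7.47 in line 10977 and 11.34 in line 10980 under 4-OHT, and 11.54 and 7.66 in the same lines under vehicle, so the order of the 2 wt lines was turned with the treatment. The fl lines were at 7.57, 8.40 and 8.91 under 4-OHT and at 9.46, 10.32 and 11.39 under vehicle. Genes beside Zfx on the X chromosome, by their order in the gene table, had 3 of 9 measured members above both wt arrays and none below. Pdk3, a kinase of pyruvate dehydrogenase, differed by 0.45 (SE 0.15, limma adjusted p = 0.324) and Spin4 by 0.26 with overlapping groups. Of 7 measured sex-chromosome genes, 0 lay wholly to either side; Eif2s3y was at 11.01, 10.36 and 10.93 in the fl lines and at 10.52 and 10.61 in the wt lines, and Kdm5c differed by -0.16.

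Several list members chosen by rule did not pass and add to the descriptions of their lists. Csf3r, the receptor for granulocyte colony-stimulating factor, differed by -0.99 (SE 0.29) and Il6st, the shared receptor chain of the interleukin-6 family, by 1.01 (SE 0.50) with overlapping groups. Il6st was at 10.45 in fl line 10986 against 9.37 and 8.62 in the other fl lines, and the difference was 0.53 without it. The integrin gene Itgav was at 9.13, 9.35 and 9.28 against 9.66 and 10.87, a difference of -1.01 (SE 0.32, limma adjusted p = 0.296) that was -0.41 without wt line 10980. Cd79b, a signalling chain of the B cell receptor, was at 11.03, 10.48 and 10.86 against 10.01 and 9.52, a difference of 1.03 (SE 0.21, limma adjusted p = 0.127), and of 0.06 under vehicle, or 0.30 without the vehicle array of line 10986. Cpa3, a mast cell protease gene, was at 10.03 in line 10950 and at 8.10 and 6.81 in the other fl lines, against 6.79 and 7.51 in the wt lines. Insig1 and Scd1, genes of sterol and fatty acid synthesis, differed by 0.63 and 0.86, and H2-DMa, a chaperone of peptide loading, by 0.61. Over the alternative analyses Insig1 ranged from 0.30 to 0.96, Scd1 from 0.50 to 1.27 and H2-DMa from 0.37 to 0.85. H2bc4, Ppbp, Vpreb1, Bop1 and Tk1 were also chosen by the rule and did not pass. In the same order they ranged from 0.45 to 1.37, 0.27 to 0.77, 0.07 to 0.41, 0.14 to 0.29 and -0.48 to -0.20.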
